A study of Homo sapiens with 6 samples.

Results

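The genes described here encode the coats, cargo receptors, fusion proteins and tethers that move proteins between the endoplasmic reticulum (ER) and the Golgi apparatus. They were chosen by gene symbol alone, as the COPII genes (SAR1, SEC13, SEC16, SEC23, SEC24 and SEC31 families), the COPI coatomer genes and the ARF GTPases. Also taken were the TMED and KDEL receptors, the SEC22 family, the TRAPP and COG tethering complexes and the numbered GOLGA and GOLGB genes. The rule took 76 of the 14959 genes in the expression table. COG8 has 2 entries, so the 76 entries carry 75 symbols.

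The libraries came from UM-SCC1, an established cell line of head and neck squamous cell carcinoma, with 3 libraries from cells given miR-204-5p mimics and 3 from cells given control mimics. Each group came from 3 independent experiments, and the cells were taken 48 h after transfection. A mimic is a synthetic double-stranded oligonucleotide that a cell loads as the mature miRNA, and it raises that miRNA above the level the line makes itself. All 6 libraries are of this 1 line, so the spread between libraries is that between cultures.

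In background, COPII coats bud vesicles from the ER, and the SEC24 subunits of that coat select the cargo. COPI coats return escaped ER residents and recycle receptors from the Golgi, while TRAPP, COG and the golgins catch incoming vesicles before their membranes fuse. Epithelial cells use the route to deliver receptors, adhesion proteins and matrix to the surface.

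The mimic was miR-204-5p, whose mature sequence of 22 bases is given because its seed, bases 2 to 8 in capitals, decides which messages it can pair with. RefSeq places it on the minus strand at chr9:70810031-70810052 of GRCh38.p14.
hsa-miR-204-5p: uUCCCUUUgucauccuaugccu
A message can pair with that seed through AAAGGGAA (an 8mer), AAAGGGA (a 7mer-m8) or AAGGGAA (a 7mer-A1), read on the strand of the message. GENCODE 29 gave the 3'UTRs, the longest annotated one of a gene was searched for these letters, and each gene was placed in the first class it met in that order.

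The sites of the 6 members that held one and were lower with the mimics are shown first, because the largest decreases below are among them. Each stretch has 30 bases, 5' to 3' on the strand of the message, with the match in capitals.
SEC24D, 8mer: aattgtaccatAAAGGGAAcaatctgtttc
ARCN1, 8mer: ggcacaaacatAAAGGGAAaggctgctaat
TMED7-TICAM2, 8mer: tagggaccacaAAAGGGAAcaagcaaaaaa
COPG1, 7mer-m8: acccttccaggAAAGGGAcattgtaaatga
TRAPPC6B, 7mer-m8: ttagtagaaacAAAGGGAgagttaggttat
SEC24A, 7mer-A1: ttttctttgttAAGGGAAaggatcatgttg
On GRCh38 the SEC24D stretch lies at chr4:118723304-118723333 on the minus strand, in exon 23 of 23. The ARCN1 stretch lies at chr11:118600912-118600941 on the plus strand, in exon 10 of 10. That of TMED7-TICAM2 is at chr5:115579249-115579278 (minus, exon 4 of 4), that of COPG1 at chr3:129277662-129277691 (plus, exon 24 of 24), that of TRAPPC6B at chr14:39147920-39147949 (minus, exon 6 of 6) and that of SEC24A at chr5:134725604-134725633 (plus, exon 23 of 23). All 6 lie in the 3'UTR of the transcript listed with the deposited value of the gene.

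The same letters also stood in 3 members that were higher with the mimics, shown so that both directions can be read side by side.
SEC22C, 8mer: ttttgcaaacaAAAGGGAAaagatgcacta
SEC31B, 7mer-m8: gatggaaggtgAAAGGGAtgaactgccttt
ARF3, 7mer-A1: ttggtgagattAAGGGAAgaaggtgggagg
They lie on the minus strand at chr3:42550587-42550616 (exon 5 of 5), chr10:100486958-100486987 (exon 26 of 26) and chr12:48938323-48938352 (exon 5 of 5). A match is a description of the sequence and no evidence of binding.

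Values are FPKM (fragments per kilobase of transcript, scaled to the mapped total of the library), as deposited. The FPKM sums of the libraries were 283454 to 291864 with the mimics and 276822 to 280056 in the controls, and 161 to 270 genes per library were listed at 0. The squamous markers were detected in every library, but 5 of the 6 differed between the groups without overlap. With the mimics and in the controls respectively, KRT5 was at 118 to 136 and 160.0 to 184 FPKM, KRT14 at 80.6 to 85.9 and 115 to 120.0, TP63 at 23.9 to 30.1 and 54.7 to 57.6, SFN at 343 to 357 and 284 to 297 and KRT6A at 2.34 to 3.36 and 0.97 to 1.67. KRT17, at 191 to 283 FPKM, overlapped, and the part of the markers in the results below was not tested. The leukocyte markers PTPRC and CD3E and the endothelial markers PECAM1 and CDH5 lay between 0 and 0.85. Of the fibroblast markers, COL1A1 was at 8.04 to 10.5 in all libraries, and COL1A2 was at 0.592 to 0.625 with the mimics and 0.298 to 0.356 in the controls.

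With the mimics, parts of the coats and tethers changed and most members did not pass the test. SEC24D, a cargo-selecting COPII subunit, fell by 51.2%, and its relative SEC24A fell by 35.6%. TMED7-TICAM2, a readthrough gene, fell by 49.8%. Smaller decreases were called in 4 of 9 COPI genes and 4 of 7 GOLGA and GOLGB genes. Among all genes, 16.8% were called lower and 40.8% in either direction, against 19.7% and 32.9% of the members. The counts per group of members, here and below, were not tested against those shares. Among the 10 members called higher, SEC23A, SEC23B, COPG2 and TMED7 rose by 16.7% to 30.4%. The call of SEC23B was lost when any 1 of 3 libraries was left out. TRAPPC4 (35.2%) and SEC31B (34.2%) rose more, but lost their calls under other scalings and with single libraries left out. The ARF, COG and TRAPP genes had 1 to 2 changed members per group.

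Fold changes are differences of mean log2(FPKM + 1), mimics minus control, so changes of scarce messages come out smaller than their FPKM ratios, and a gene is called when the adjusted p of limma (Benjamini-Hochberg over the 14959 genes) is under 0.05. Of the 76 members, 15 were lower and 10 higher, and 51 were not called. Over all genes of the table, 16.8% were lower, 23.9% higher and 40.8% called in either direction, against 19.7%, 13.2% and 32.9% of the members. The median log2 fold change was 0.0035 over the members and 0.03 over all genes, and the median size of the change was 0.14 over the members and 0.18 over all genes. In 41 members the groups did not overlap (22 lower and 19 higher, or 53.9%), beside 53.6% of all genes.

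The balance of the directions moved with the scaling. Lower calls were 60.0% of the called members as deposited, with 15 lower and 10 higher, and became 22 and 5 with the FPKM sums made equal, 22 and 7 with equal medians and 20 and 7 after quantile normalization (81.5%, 75.9% and 74.1% lower). Over all genes of the table, lower calls moved the same way, from 41.3% of the called genes to 48.4%, 48.7% and 49.9%. Members not called as deposited that were lower under all 3 scalings were ARF5, ARF6, COPZ2, TMED8 and TMED10. Without single libraries 11 to 15 members were lower and 4 to 7 higher, with 4 higher without control replicate 1 or control replicate 2 and 5 without miR-204-5p replicate 2. Of the 25 calls, 13 were kept in all 12 alternatives tried: SEC24D, SEC24A, TMED7-TICAM2, GOLGA3, ARCN1, TRAPPC6B, COPG1, COPB1, GOLGA2 and GOLGA4 on the lower side and TMED7, SEC23A and COPG2 on the higher side. A fit with replicate number as a block, not repeated gene by gene below, lost COPA, COG2 and GOLGB1 (limma adjusted p 0.0578, 0.0594 and 0.0594). It also lost the calls of SEC22C (0.0624), SEC16A (0.0763), TRAPPC4 (0.0772), SEC31B (0.0866), TMED2 (0.0921), SEC24B (0.13) and KDELR2 (0.142).

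**Figure D1:**
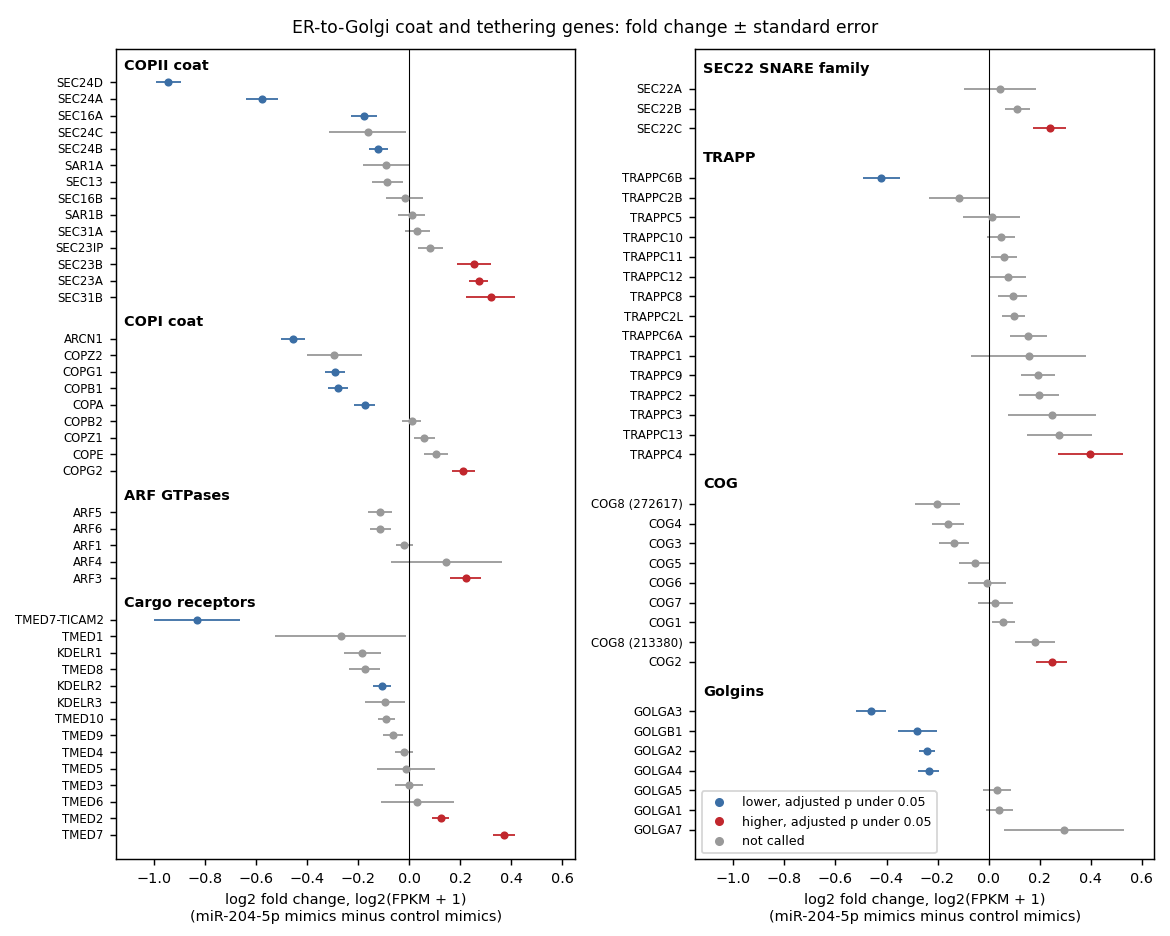
Log2 fold change (mimics minus control, on log2(FPKM + 1)) of the 76 members, grouped by role, with 1 point per gene and bars of 1 SE, coloured by call. SEC24D (-0.95) and TMED7-TICAM2 (-0.83) lie furthest to the lower side, and the called increases end at 0.40 (TRAPPC4).

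The COPII coat assembles when SAR1 GTPases recruit SEC23 and SEC24 heterodimers, and the SEC13 and SEC31 cage then polymerizes over them. Of its 14 genes, 4 were lower, 3 higher and 7 not called. Of the 4 SEC24 genes 3 fell, and both SEC23 genes, their partners in the inner layer, rose.

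SEC24D had 7.40, 7.70 and 7.56 FPKM in the 3 libraries with the mimics and 16.05, 15.5 and 14.9 in the 3 controls. The lowest control was thus well above the highest library with the mimics. Its log2 fold change was -0.95 (SE 0.0475, limma adjusted p = 6.74e-05), the largest decrease among the members, and the gene spans chr4:118722823-118836138 on the minus strand.

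SEC24A, another cargo adaptor of the coat, had 8.05, 7.27 and 8.24 FPKM with the mimics and 12.8, 11.8 and 12.01 in the controls. Its groups stood apart, with means of 7.85 ± 0.513 and 12.2 ± 0.53 (SD, n = 3) and a log2 fold change of -0.58 (SE 0.0619, adjusted p = 0.000725). SEC24B had 13.6, 13.4 and 13.3 FPKM with the mimics and 14.5, 14.9 and 14.8 in the controls. That narrower gap gave -0.12 (adjusted p = 0.0425), and the call was lost when any single library was left out (adjusted p from 0.068 to 0.116). SEC24C had 35.3, 47.7 and 38.01 FPKM with the mimics and 54.9, 40.7 and 40.6 in the controls. Its groups overlapped (-0.16, adjusted p = 0.433), and the transcript listed for it is annotated as a target of nonsense-mediated decay.

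SEC24D made up 11.5%, 10.1% and 11.3% of the summed FPKM of the SEC24 genes with the mimics and 16.3%, 18.7% and 18.1% in the controls. The share of SEC24A was 12.5%, 9.56% and 12.3% against 13%, 14.2% and 14.6%, so the groups of both shares were separate. SEC24C was the most abundant SEC24 message in every library, at 49.1% to 62.7% of the sum.

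SEC23A, the GTPase-activating subunit that pairs with SEC24, had 24.02, 24.9 and 25.2 FPKM with the mimics and 20.1, 20.7 and 20.1 in the controls. The increase of 0.27 (SE 0.038, adjusted p = 0.00202) separated all libraries. SEC23B had 30.4, 29.3 and 32.8 FPKM with the mimics and 26.4, 23.7 and 27.2 in the controls. The groups did not overlap (0.25, SE 0.0657, adjusted p = 0.0225), though the call was lost without miR-204-5p replicate 1, miR-204-5p replicate 3 or control replicate 2 (adjusted p from 0.0525 to 0.0622).

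**Figure D2:**
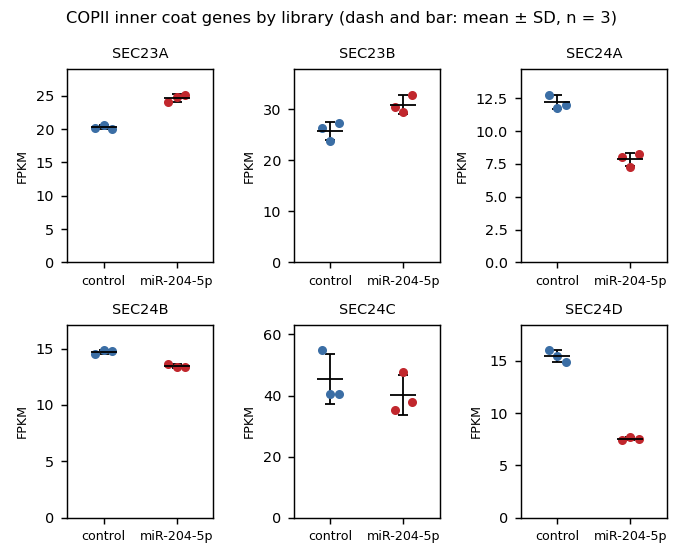
FPKM per library of the SEC23 and SEC24 genes of the COPII coat, with each axis starting at 0, points for the 3 libraries of each group and a bar for mean ± SD. SEC24D lies at 7.40 to 7.70 FPKM with the mimics and 14.9 to 16.05 in the controls, SEC23A and SEC23B are higher with the mimics, and SEC24C overlaps.

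SEC31B, the scarcer form of the outer cage subunit, had 3.23, 3.31 and 4.01 FPKM with the mimics and 2.61, 2.90 and 2.35 in the controls. It was higher in all 3 libraries (0.32, SE 0.0945, adjusted p = 0.0358), 22.8% of its transcript is shared with AL133352.1 (19.1 to 29.7 FPKM), and the call was lost without miR-204-5p replicate 2, miR-204-5p replicate 3, control replicate 1 or control replicate 3 (adjusted p from 0.0642 to 0.103), with equal sums (0.0622) and after quantile normalization (0.0844). SEC31A, the main form, had 21.7, 22.7 and 23.6 FPKM against 22.4, 22.9 and 21.2. Its groups overlapped (adjusted p = 0.648).

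SEC16A, the scaffold of ER exit sites, had a mean of 19.6 ± 1.09 FPKM with the mimics and 22.3 ± 0.504 in the controls (SD, n = 3). The change of -0.18 was called (adjusted p = 0.0302), but not without miR-204-5p replicate 1 or any one of the controls (adjusted p from 0.0542 to 0.0845). The GTPase genes SAR1A (-0.09, adjusted p = 0.458) and SAR1B (0.01, adjusted p = 0.915), which start coat assembly, and SEC13 (-0.09, adjusted p = 0.297) were not called. SEC16B had a mean FPKM of 0.655 and was not called.

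COPI is built from a coatomer of α, β, β′, γ, δ, ε and ζ subunits, with paralogues for γ and ζ. Of the 9 coatomer genes, 4 were lower with the mimics, 1 was higher and 4 were not called, with a median log2 fold change of -0.18. The 4 that fell encode the α, β, γ1 and δ subunits.

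ARCN1, the δ subunit, had 30.9, 31.4 and 33.7 FPKM with the mimics and 45.8, 42.9 and 44.1 in the controls. Every control lay above every library with the mimics, and the log2 fold change was -0.46 (SE 0.0469, adjusted p = 0.000613), a decrease in which mean FPKM fell by 27.8%. The transcript listed for ARCN1 has 1709 bases and is 42.3% as long as its longest one. COPG1, the main γ subunit, had 68.4, 66.6 and 72.1 FPKM against 85.6, 83.7 and 84.9. It too separated the groups (-0.29, SE 0.0392, adjusted p = 0.00169).

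COPG2, the other γ subunit, went the opposite way, at 20.8, 21.0 and 20.1 FPKM with the mimics and 18.1, 16.9 and 18.1 in the controls. Its increase was 0.21 (SE 0.0437, adjusted p = 0.00933), and all 3 libraries with the mimics were above all 3 controls. COPB1, the β subunit, had 47.6, 48.4 and 47.5 FPKM against 58.2, 56.1 and 60.7. The groups were separate (-0.28, SE 0.0391, adjusted p = 0.00201), and 11.7% of its exon bases are shared with AC018523.2. COPA, the α subunit, had means of 62.4 ± 2.76 and 70.6 ± 1.26 FPKM (SD, n = 3). Its change was -0.18 (adjusted p = 0.0167), and it was not called without control replicate 1 or control replicate 2 (adjusted p 0.0523 and 0.0566).

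The 4 other coatomer genes did not pass the test. COPB2 (β′) was at 53.3 ± 1.16 FPKM with the mimics and 52.9 ± 1.51 in the controls. Its listed transcript has 433 bases and is 12.3% as long as its longest one. COPE (0.10, adjusted p = 0.125) and COPZ1 (0.06, adjusted p = 0.3) were slightly above control in mean. COPZ2 (-0.30, adjusted p = 0.0694) was below control in all 3 libraries and called lower under the 3 other scalings (adjusted p from 0.0404 to 0.0495) and without miR-204-5p replicate 3 (0.046), and its listed transcript is annotated as a decay target.

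**Figure D3:**
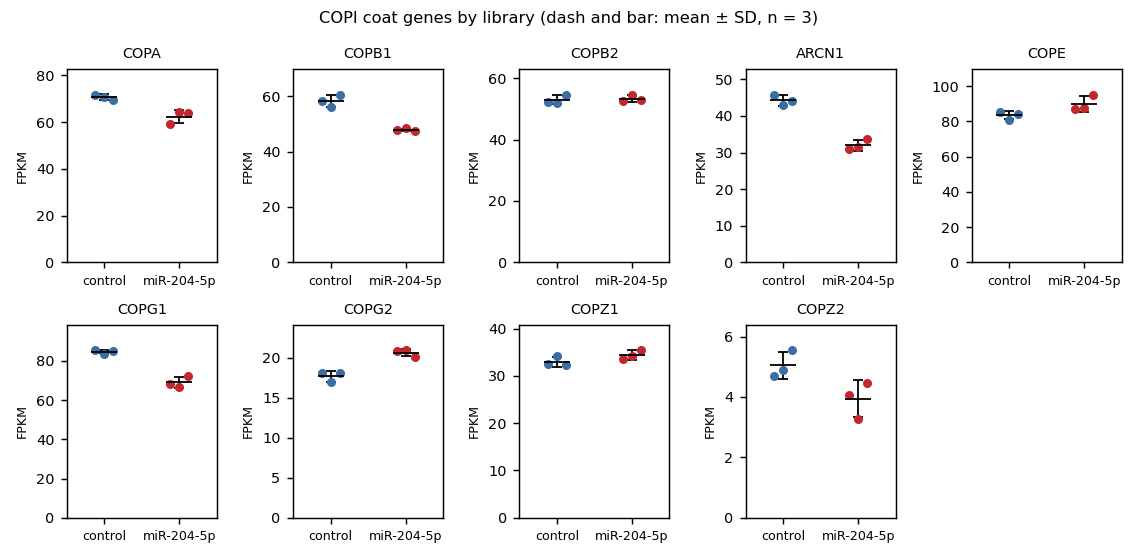
FPKM per library of the 9 coatomer genes, with each axis starting at 0, points for the 3 libraries of each group and a bar for mean ± SD. ARCN1 (30.9 to 33.7 with the mimics, 42.9 to 45.8 in the controls), COPG1, COPB1 and COPA are lower with the mimics and COPG2 is higher.

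Some ARF GTPases recruit COPI to Golgi membranes when they bind GTP, and an ARF symbol does not show that each does so. Of the 5 ARF genes in the table, 1 was called. ARF3 had 70.2, 78.4 and 82.6 FPKM with the mimics and 64.8, 66.7 and 66.1 in the controls. The groups were separate (0.22, SE 0.0614, adjusted p = 0.0288), but the call was lost under all 3 other scalings (adjusted p from 0.0554 to 0.0879) and without miR-204-5p replicate 2, miR-204-5p replicate 3 or any one control (0.0652 to 0.0865). Of its exon bases, 13% are shared with AC073610.3.

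ARF1, the most abundant of the 5, had 205, 209 and 214 FPKM against 209, 214 and 215, and its groups overlapped (-0.02, adjusted p = 0.661). ARF5 (-0.11, adjusted p = 0.0921) was called lower only under the 3 other scalings (0.0227 to 0.0337) and without control replicate 1 (0.0375). ARF6 (-0.11, adjusted p = 0.068) was likewise called lower only under those scalings (0.0214 to 0.04) and without miR-204-5p replicate 2 (0.0336). ARF4 was not called either (0.14, adjusted p = 0.636), with a coefficient of variation of 33.8% among the libraries with the mimics.

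The cargo receptors comprise the TMED proteins, which carry secretory cargo in both coats, and the KDEL receptors, which bring back escaped ER chaperones. The 14 genes were taken by a TMED or KDELR symbol, which does not show that each encodes such a receptor. Of these, 2 were lower (1 of them the readthrough gene TMED7-TICAM2), 2 higher and 10 not called.

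TMED7 had 42.8, 43.8 and 40.0 FPKM with the mimics and 32.7, 32.2 and 32.2 in the controls. The groups were far apart relative to their spread (0.37, SE 0.0437, adjusted p = 0.00103). TMED7-TICAM2, a readthrough gene that joins TMED7 to its neighbour TICAM2, an adaptor of innate immune signalling, had 2.32, 3.997 and 3.61 FPKM with the mimics and 7.32, 5.63 and 6.83 in the controls. It fell by 0.83 on the log2 scale (SE 0.168, adjusted p = 0.00865) while TMED7 rose.

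These neighbours share 935 exon bases on the same strand, 26.8% of the listed transcript of TMED7-TICAM2 and 24.9% of that of TMED7, and TMED7-TICAM2 shares 73.0% with TICAM2. TICAM2 itself had 0.586, 0.174 and 0.304 FPKM with the mimics and 0.519, 0.949 and 0.768 in the controls and was not called (-0.37, adjusted p = 0.069). Reads of the shared bases could have been counted for either gene, so the split of the signal between these genes is uncertain.

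TMED2 had 117, 118 and 116 FPKM with the mimics and 107, 105 and 110.4 in the controls. It was higher in all 3 libraries (0.12, adjusted p = 0.0247), but lost the call with equal sums (0.0927), with equal medians (0.117) and without replicates 1 or 2 of either group (0.0512 to 0.0873).

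KDELR2 had 100.3, 102 and 106 FPKM with the mimics and 112, 112 and 109 in the controls. That small decrease (-0.11, adjusted p = 0.0483) was lost with a pseudocount of 0.1 (0.0517) and without any one library but miR-204-5p replicate 3 (0.0696 to 0.132). KDELR1 had 75.3, 82.0 and 86.7 FPKM against 97.3, 84.9 and 95.5, overlapped and was not called (-0.18, adjusted p = 0.085) other than with equal medians (0.0465) and without control replicate 2 (0.0404). KDELR3 had 10.6, 13.3 and 11.8 FPKM against 12.8, 12.6 and 12.9, overlapped and was not called (-0.10, adjusted p = 0.374), nor was TMED1 (-0.27, adjusted p = 0.442), whose libraries varied by 26.8% in the controls.

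The SEC22 proteins are related to SNAREs, and SEC22B is the one with a known part in membrane fusion between ER and Golgi. SEC22C had 7.76, 8.86 and 8.93 FPKM with the mimics and 7.14, 6.88 and 7.12 in the controls. All 3 were above control (0.24, SE 0.0648, adjusted p = 0.0257), though not past the threshold with equal sums (0.0676) or without miR-204-5p replicate 2, miR-204-5p replicate 3 or any one control (0.0598 to 0.0821). SEC22B had 6.48, 6.40 and 6.56 FPKM against 5.93, 5.84 and 5.98. Its groups were separate but it was not called (0.11, adjusted p = 0.106). SEC22A, at 3.12, 4.25 and 2.55 FPKM against 3.05, 3.28 and 3.05, overlapped.

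TRAPP complexes tether vesicles and activate RAB1-type GTPases. Of the 15 TRAPP genes, 1 was lower, 1 higher and 13 not called. TRAPPC6B, a core subunit, had 10.1, 9.73 and 9.86 FPKM with the mimics and 12.6, 13.1 and 15.2 in the controls. The groups were separate (-0.42, SE 0.072, adjusted p = 0.00461). Its paralogue TRAPPC6A had 32.1, 27.3 and 31.9 FPKM against 25.9, 27.0 and 28.4, overlapped and was not called (0.16, adjusted p = 0.13) except, as higher, without miR-204-5p replicate 2 (0.024).

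TRAPPC4, also a core subunit, had 15.0, 14.1 and 11.4 FPKM with the mimics and 10.5, 8.48 and 11.0 in the controls. The nearest libraries of the groups lay close together (0.40, SE 0.126, adjusted p = 0.0441), and the call was lost under the 3 other scalings (0.0536 to 0.067) and without any one library but miR-204-5p replicate 3 (0.0505 to 0.125). TRAPPC9 was above control without overlap and was called only with the filter at a mean FPKM of 1 (0.19, adjusted p = 0.058 and, filtered, 0.0462). TRAPPC1 (0.16, adjusted p = 0.619) and TRAPPC3 (0.25, adjusted p = 0.296) varied by 28.4% among the libraries with the mimics and by 27.0% among the controls respectively, and TRAPPC3 was called higher without control replicate 3 (0.45, adjusted p = 0.0107).

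COG is a tether of vesicles that travel within the Golgi. COG2 had 8.20, 8.91 and 8.06 FPKM with the mimics and 6.68, 6.73 and 7.33 in the controls, and was the only called entry of 9. All 3 libraries were above control (0.25, SE 0.0618, adjusted p = 0.0194), but not past the threshold without miR-204-5p replicate 2, control replicate 1 or control replicate 2 (0.0606 to 0.0626). The transcript listed for COG2 is 37.3% as long as its longest one. The entries for COG8 had opposite signs and neither was called, both with an adjusted p of 0.114. ENSG00000213380 had 6.76, 7.07 and 6.19 FPKM with the mimics and 5.18, 6.18 and 5.94 in the controls, with groups that just failed to overlap (0.18). ENSG00000272617 (-0.20) was called lower without control replicate 2 (-0.30, adjusted p = 0.0118) and shares 60.4% of its exon bases with PDF, a neighbouring gene that was higher (0.61, adjusted p = 0.00682).

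Golgins are long coiled-coil proteins that reach out from Golgi membranes to capture vesicles. The 7 genes here were taken by a GOLGA or GOLGB symbol, which does not show that each encodes such a protein. Of these, 4 were lower and none was called higher. GOLGA3 had 15.7, 16.3 and 18.0 FPKM with the mimics and 22.6, 24.3 and 23.01 in the controls. The groups were well apart (-0.46, SE 0.059, adjusted p = 0.00144).

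GOLGA2, the cis-Golgi matrix protein GM130, had 54.9, 56.4 and 56.1 FPKM against 66.5, 66.1 and 65.8. That gap was small but far larger than the spread (-0.24, SE 0.0305, adjusted p = 0.00135). GOLGA4, a golgin of the trans-Golgi, changed by -0.23 (SE 0.0404, adjusted p = 0.00465). GOLGB1, known as giantin, had 10.04, 9.70 and 10.3 FPKM against 13.2, 12.996 and 10.9. One control lay near the libraries with the mimics (-0.28, SE 0.0768, adjusted p = 0.0274), and the call was lost without any one library but control replicate 3 (0.0552 to 0.0858). The other genes with these symbols (GOLGA1, GOLGA5 and GOLGA7) were not called, other than GOLGA7 as higher with the replicate block (0.29, adjusted p = 0.0203).

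Paralogues can be compared within a library, since FPKM is per length. Of 13 pairs with both members at a mean FPKM of at least 1, 7 had log2 ratios that did not overlap between the groups. No such share was worked out for other gene pairs, and 53.6% of all single genes did not overlap either. An exact permutation test of 3 against 3 cannot go below p = 0.1, two-sided, which these 7 reached (0.186 after adjustment over the 13 pairs), so no pair could pass 0.05.

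The log2 ratio of SEC24C to SEC24D differed by 0.87 between mimics and control, that of SEC24A to SEC24B by -0.51 and that of COPG1 to COPG2 by -0.52. That of TRAPPC6A to TRAPPC6B differed by 0.62, of COPZ1 to COPZ2 by 0.42, of SEC31A to SEC31B by -0.39 and of ARF1 to ARF3 by -0.24. SEC23A and SEC23B, which both rose, kept a ratio whose groups overlapped (difference 0.02, exact p = 0.7).

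**Figure D4:**
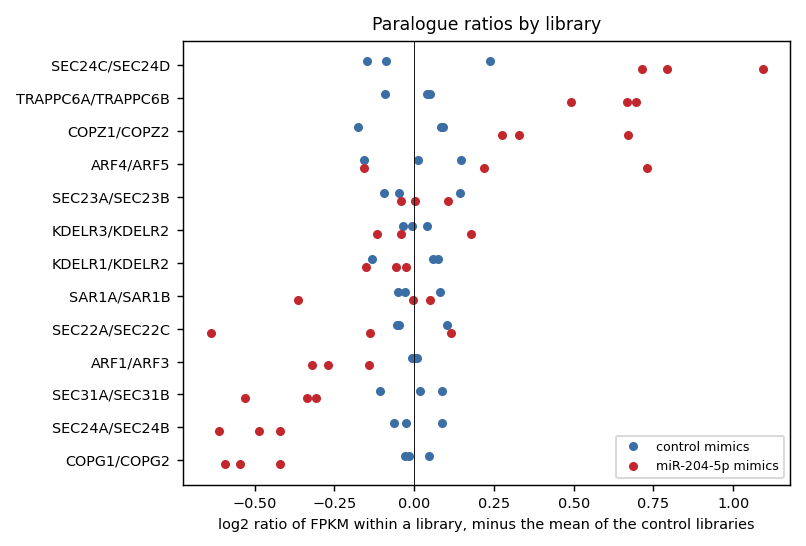
Log2 ratio of FPKM within a library for 13 paralogue pairs, minus the mean of the 3 control libraries, with 1 point per library coloured by group. SEC24C to SEC24D and TRAPPC6A to TRAPPC6B are higher with the mimics, COPG1 to COPG2 and SEC24A to SEC24B lower, and SEC23A to SEC23B overlaps.

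All 76 members had an annotated 3'UTR, and 20 held a match of at least 7 bases to the miR-204-5p seed. Of these 20, 6 were lower (30%), 3 higher (15.0%) and 11 not called, beside 27.0% lower and 16.4% higher among the 3973 genes of the whole table with a match. Of the 56 members without a match, 16.1% were lower and 12.5% higher, beside 13.4% and 27.2% of 10687 genes. The members thus lay near the whole table in the share lower and, without a match, under it in the share higher, with no test of either difference.

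By class, 3 of 10 members with an 8mer were lower, as were 2 of 6 with a 7mer-m8 and 1 of 4 with a 7mer-A1. Over all genes, 33.5% of those with an 8mer, 25.6% with a 7mer-m8 and 22.3% with a 7mer-A1 were lower. The largest decrease with no match in the longest 3'UTR was that of GOLGA3. COPB1, GOLGA2, GOLGA4, GOLGB1, COPA, SEC16A, SEC24B and KDELR2 also fell without one there. With all annotated 3'UTRs of a gene joined, 8 of these 9 lower members had no match.

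Several members with a long match were not called. TMED8 had 6.24, 6.57 and 7.01 FPKM with the mimics and 7.33, 7.51 and 7.92 in the controls, with an 8mer and no overlap (-0.18, adjusted p = 0.058). It was called lower under the 3 other scalings (0.028 to 0.0401), with the filter at a mean FPKM of 1 (0.0432) and without miR-204-5p replicate 3 (0.0464). GOLGA1 had 7.70, 7.24 and 7.07 FPKM against 7.205, 7.13 and 6.95 and overlapped (0.04, adjusted p = 0.572). TMED3 (4.98, 4.67 and 4.93 against 4.79, 4.97 and 4.84) and TRAPPC5 (3.49, 2.51 and 2.59 against 2.54, 2.89 and 3.03) also held an 8mer and overlapped, as did TMED5 with a 7mer-m8 (17.2, 20.6 and 20.1 against 21.0, 16.5 and 21.1). KDELR1 and SEC22B, above, held a 7mer-m8, and SEC22A and the COG8 entry ENSG00000213380 an 8mer. The 8mers of TMED3, SEC22A and COG8 lie outside the transcript that the table lists for the gene.

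**Figure D5:**
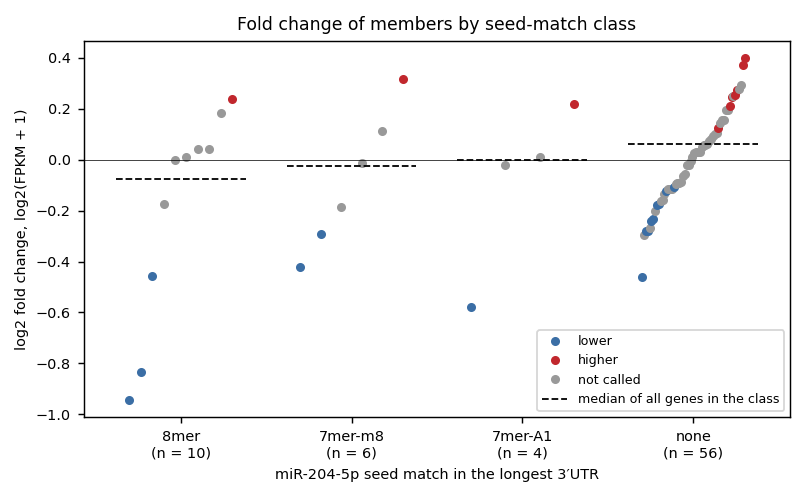
Log2 fold change (on log2(FPKM + 1)) of the 76 members by class of seed match in the longest 3'UTR, 1 point per gene coloured by call and sorted within its class, with a dashed line at the median of all genes of the class. SEC24D, TMED7-TICAM2 and ARCN1 lie below -0.4 among the 10 members with an 8mer, and the other 7 of that class are spread around 0.

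The route holds many genes whose symbols the rule did not take. In a list of 56 of them, covering export receptors, SNAREs, RAB GTPases with their tethers, ARF regulators, YIP family proteins and transcription factors of secretory capacity, 10 were lower, 12 higher and 34 not called. These are 17.9% lower and 21.4% higher, near the 16.8% and 23.9% of all genes. The balance turned with the scaling, to 12 lower and 9 higher with equal sums, 13 and 9 with equal medians and 12 and 8 after quantile normalization. Over all genes the lower share of the calls also rose under these scalings, as given above. Without miR-204-5p replicate 1 only 12 were called (6 in each direction), and without control replicate 3 the count was 14.

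RAB2A, a GTPase of the intermediate compartment, had 29.2, 27.7 and 30.8 FPKM with the mimics and 37.3, 36.4 and 39.9 in the controls (-0.36, adjusted p = 0.0027). ARFGEF1, an exchange factor that loads ARF with GTP, had 21.7, 21.9 and 21.2 FPKM against 27.8, 27.8 and 27.2 (-0.34, adjusted p = 0.000642). The Golgi membrane proteins YIPF6 (-0.29, adjusted p = 0.0103) and YIPF4 (-0.28, adjusted p = 0.00621) were also lower. In these 4 genes no library with the mimics reached a control.

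USO1, the golgin-like tether p115, rose from 37.9, 38.7 and 39.9 FPKM in the controls to 53.8, 56.3 and 53.9 with the mimics (0.48, adjusted p = 0.000234). SCFD1, the SM protein that acts with the ER to Golgi SNAREs, had 23.4, 22.1 and 20.3 FPKM with the mimics and 16.6, 15.3 and 16.2 in the controls (0.43, adjusted p = 0.00242). LMAN2L (0.59, adjusted p = 0.0119), a lectin that binds glycoprotein cargo, and CNIH1 (0.38, adjusted p = 0.00806), a cornichon cargo receptor, were higher as well. USO1 thus moved opposite to the 4 golgins that fell.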

How the data were processed

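RNA-seq libraries of transfected UM-SCC1 cells were compared, 3 of each group. The authors deposited FPKM values per gene, each with 1 listed transcript and its length. Whether a value is that of the listed transcript or of the whole gene is not stated. The submitters' processing notes name HISAT2, StringTie and hg38, with versions, parameters and annotation not given in the sources used here. The deposited table also holds 3 columns of the authors' own comparison (log2 fold change, p-value and FDR), which were not used.

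The table holds no counts, so depth is unknown. In genes with 1 annotated transcript, 43.9% to 56.2% of low values per library were whole multiples of a common step (tolerance 0.02), too few to recover reads. Stranded counting is not stated, so genes that overlap on opposite strands cannot be told apart.

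Log2(FPKM + 1) was fitted over all 14959 genes without a filter by limma's moderated linear model with a mean trend, two-sided (version 3.58.1 under R 4.3.3), adjusted by Benjamini-Hochberg at 0.05, after tests on simulated data. Seed matches were sought in GENCODE 29 and mature miRNA sequence taken from RefSeq. The listed transcript was found for all 76 members with the same coordinates, is the longest of its gene for 42, is below 50% of the longest for 11 and is a decay target for 4. Alternatives were 3 scalings, a pseudocount of 0.1, a filter at mean FPKM 1, a replicate block and each library left out. Other steps ran in Python 3.11.15 with scipy 1.17.1, pandas 2.3.3 and numpy 2.4.6.

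Values in every library are given for the 10 largest called decreases and increases, for paralogue pairs with a called member and for members with an 8mer or 7mer-m8, and the 4 largest changes per direction are named of the wider list. The members, lists and rules were chosen with earlier results of these data known. TICAM2, PDF, the members named for their spread and the shares within the SEC24 genes were chosen after their values were seen.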

Additional observations from a re-analysis of the deposited data

How the results depend on the processing

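The count of genes called in the whole table (6098) stayed between 4971 and 6089 under the alternatives, and the members called lower (15) between 10 and 22. The members called higher numbered 10, against 6 with the replicate block, 5 with equal sums and 4 to 7 with single libraries left out. Same-numbered libraries did not deviate together (correlations -0.04, -0.02 and -0.11 over 11504 genes), so the numbers are not taken as pairs, and the replicate block left 10 members lower and 6 higher and 5096 genes called. The wider list gave 12 to 17 called genes with single libraries left out (6 to 8 lower and 6 to 10 higher). The members that changed sign under an alternative, none of them called, follow. With equal sums, equal medians and quantile normalization, COPB2 was at -0.034, -0.035 and -0.013, SAR1B at -0.029, -0.030 and -0.041, TRAPPC5 at -0.021, -0.021 and -0.068 and SEC31A at -0.011, -0.012 and -0.00076, with equal sums and medians COG7 was at -0.014 and -0.015 and GOLGA5 at -0.011 and -0.012, and with quantile normalization SEC22A was at -0.037 and TMED6 at -0.022. With single libraries left out, the log2 fold changes ran from -0.10 to 0.36 for ARF4, from -0.045 to 0.063 for COG6, from -0.031 to 0.071 for COG7, from -0.012 to 0.066 for GOLGA5, from -0.065 to 0.043 for SEC16B, from -0.11 to 0.11 for TMED6, from 0.00089 to 0.062 for SEC31A, from -0.0081 to 0.032 for COPB2, from -0.16 to 0.0087 for SAR1A, from -0.013 to 0.025 for SAR1B, from -0.11 to 0.17 for SEC22A, from -0.016 to 0.022 for TMED3, from -0.13 to 0.064 for TMED5, from -0.062 to 0.33 for TRAPPC1 and from -0.10 to 0.076 for TRAPPC5. The paralogue differences ran from -0.18 to 0.024 for SAR1A to SAR1B, from -0.024 to 0.094 for SEC23A to SEC23B and from -0.079 to 0.068 for KDELR3 to KDELR2. The causes were not tested. The 6 lower members with a seed match were 6 with the listed transcript's 3'UTR and 7 with all 3'UTRs joined.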

Other observations

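Some members lie beside each other. SEC23A and TRAPPC6B, 59.1 kb apart on the same strand of chromosome 14, moved in opposite directions (0.27 and -0.42). SEC24A and SAR1B, 15.8 kb apart on opposite strands of chromosome 5, had log2 fold changes of -0.58 and 0.01. The median coefficient of variation of a member within its group was 5.17% with the mimics and 3.88% in the controls. It passed 20% in at least 1 group for 9 members, of which TMED7-TICAM2 (26.6%) was the only called one.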
